A study of Mus musculus with 16 samples.

Results

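The transcripts described here are those of 32 genes of the early secretory pathway, which move new proteins into the endoplasmic reticulum (ER), attach N-linked sugars to them and coat the vesicles that return material from the Golgi. They are the rows of the deposited expression table whose symbol matched 1 of 32 names exactly. All 32 names were found among 24319 genes with a usable symbol, and matching by name used no measured value. The names themselves were chosen with earlier results of these data known, so counts over the members are descriptions. The members comprised 12 genes of the translocon, its accessory proteins and signal peptidase (Sec61a1, Sec61b, Sec61g, Sec62, Sec63, Ssr1 to Ssr4, Spcs1, Spcs2 and Spcs3), 9 genes of the oligosaccharyltransferase (Krtcap2, Rpn1, Rpn2, Ddost, Dad1, Stt3a, Stt3b, Ostc and Tmem258), 7 coatomer genes (Copa, Copb1, Copb2, Cope, Copg1, Copz1 and Arcn1), 3 genes of ufmylation (Cdk5rap3, Ufm1 and Ufl1), and Tmem208, which stands on its own. The cells were C2C12 myotubes, the differentiated form of an established mouse myoblast line, kept for 24 hr in medium with mouse serum. Serum donors were mice whose liver lacked Bmal1 (Bmal1hep-/-), a core gene of the circadian clock, or wild-type (WT) mice. Serum was taken at ZT16, in the night, or at ZT4, in the day. The groups were Bmal1hep-/- ZT16, Bmal1hep-/- ZT4, WT ZT16 and WT ZT4, with 4 libraries each, called biological replicates in the labels. The deletion was in the donors' liver, and all groups used the same myotube line. The sources used here do not give how the deletion was driven, the age and number of serum donors or whether sera were pooled, so p-values reflect only how far these libraries spread, which may be technical.

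Most secreted and membrane proteins enter the ER through the Sec61 channel while they are still being made. Signal peptidase then removes the signal peptide, and the oligosaccharyltransferase moves a preassembled glycan from a dolichol lipid onto asparagine residues of the chain as it emerges. The coatomer is the COPI coat, which forms vesicles on Golgi membranes and returns escaped ER proteins. Ufmylation attaches the ubiquitin-like protein UFM1 to targets, among them ribosomes docked at the translocon. In skeletal muscle this route delivers surface receptors, channels and matrix proteins. Many of its genes are targets of the unfolded protein response, which also raises ER chaperones such as Hspa5 (BiP).

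Values are FPKM, the number of fragments scaled by transcript length and by the size of the library, as deposited. Summed FPKM ran from 580818 to 690636 per library, and the shallowest library had 65.5% of the depth of the deepest, as read from the smallest steps of the values. All 32 members reached a mean of 0.5 FPKM, the minimum for testing, as did 11783 genes in all. Differences are in log2(FPKM+1) with their standard error (SE) and were tested with limma over those 11783 genes. A gene passed with an adjusted p (Benjamini-Hochberg) under 0.05. The 4 groups each enter more than 1 comparison, so the comparisons are not independent. Of 19 myotube markers measured, 0 were below 1 FPKM throughout, and their summed FPKM overlapped between groups (5050 to 5660 in Bmal1hep-/- ZT16, 4610 to 6730 in Bmal1hep-/- ZT4, 5100 to 6480 in WT ZT16 and 4980 to 5690 in WT ZT4). Markers of myoblasts and cycling cells were present too, with 0 of 10 below 1 FPKM throughout. Their summed FPKM was 524 to 574 in Bmal1hep-/- ZT16, 520 to 556 in Bmal1hep-/- ZT4, 532 to 580 in WT ZT16 and 509 to 593 in WT ZT4. All 10 hepatocyte markers were below 1 FPKM in every library, with Ttr, Fgb, Tat and Tdo2 at 0. Of 10 fibroblast and adipocyte markers 5 were below 1 FPKM throughout, and the list's summed FPKM was 171 to 195 in Bmal1hep-/- ZT16, 174 to 188 in Bmal1hep-/- ZT4, 145 to 195 in WT ZT16 and 168 to 191 in WT ZT4. Its 4 tested genes were all higher in Bmal1hep-/- ZT16 than in WT ZT16 (median 0.16), and their part in the members' night differences was not tested. Of 9 blood cell markers 7 were below 1 FPKM throughout, with Hbb-bs, Ptprc, Cd3e and Pf4 at 0. In bulk RNA, fewer cells of a type and less RNA per cell cannot be told apart. Arntl, the table's symbol for Bmal1, had 4.25 to 6.29 FPKM in Bmal1hep-/- ZT16, 4.82 to 7.51 in Bmal1hep-/- ZT4, 4.87 to 5.72 in WT ZT16 and 4.64 to 7.88 in WT ZT4, which does not check a deletion made in the donors. Replicate 1 of Bmal1hep-/- ZT4 stood apart for these genes, being the highest of the 16 libraries in 27 of the 32. Some values that move with it are also given without it. Others, such as the day differences of Ssr2 and Ostc, are given only with it.

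All 32 transcripts were well expressed, and their FPKM, a level per transcript length, spanned from 9.80 for Ufl1, the E3 ligase of ufmylation, to 367 for Krtcap2, a subunit that joins the STT3A form of the oligosaccharyltransferase to the translocon. These are means over the 16 libraries. Below Krtcap2, Tmem258, a small core subunit of the oligosaccharyltransferase, averaged 277 FPKM, and Ssr3, a subunit of the translocon-associated protein complex, averaged 273 FPKM. The catalytic subunits differed from each other, with 156 FPKM for Stt3a, which acts on chains still in the channel, and 60.6 FPKM for Stt3b, which can act later. The 3 Sec61 subunits were close together, at 142.5 FPKM for the pore subunit Sec61a1, 165.6 for Sec61b and 163.6 for Sec61g. Sec63, a membrane J-domain protein that recruits BiP to the channel, had 24.3 FPKM. The 7 coatomer genes lay within a narrow band, between 56.1 FPKM for Copb1 and 89.3 for Arcn1, and the 3 ufmylation genes were the lowest of all members, with 22.5 FPKM for Cdk5rap3 and 19.1 for Ufm1.

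**Figure D1:**
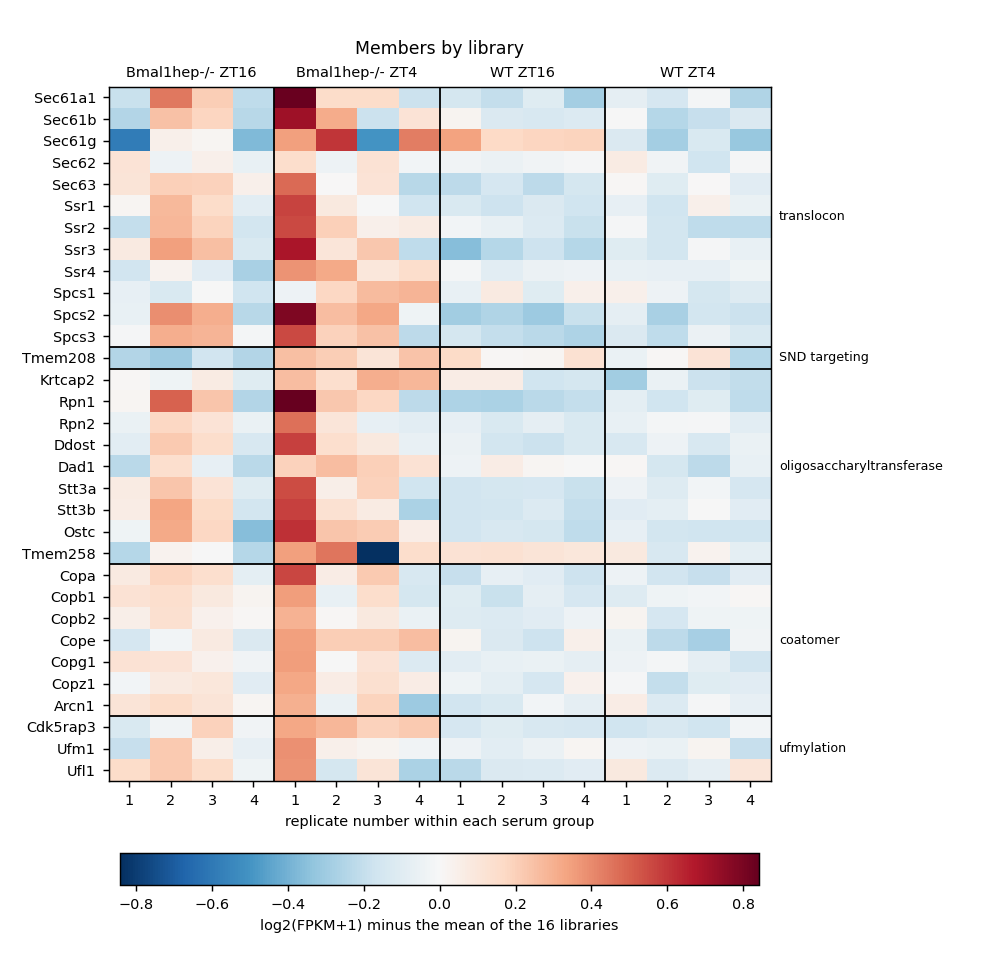
Colours show log2(FPKM+1) of each of the 32 members (rows, by set) in each of the 16 libraries (columns, by serum group and replicate number) minus the member's mean over all libraries. Bmal1hep-/- ZT4 replicate 1 is the reddest column, and the 8 WT columns are pale blue for most members.

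Under day serum, all 32 members had a higher mean under Bmal1hep-/- ZT4 serum than under WT ZT4 serum, and 0 of them passed. The median difference was 0.26 (log2), against -0.01 over all tested genes, of which 47.3% were higher. The translocon set had the highest median (0.31, 12 genes), followed by the oligosaccharyltransferase (0.28, 9 genes), ufmylation (0.17, 3 genes) and the coatomer (0.16, 7 genes). Without Bmal1hep-/- ZT4 replicate 1 the set medians were 0.21 (translocon), 0.15 (oligosaccharyltransferase), 0.08 (ufmylation) and 0.07 (coatomer). No difference between sets was tested. Over all genes 0.00849% passed in this comparison, and 10.3% had an unadjusted p under 0.05, as did 19 of the 32 members, all higher. In 9 members the 4 Bmal1hep-/- ZT4 libraries all lay above the 4 WT ZT4 libraries and in 0 all lay below, where 2.28% and 1.65% of all tested genes did so. The members' median without Bmal1hep-/- ZT4 replicate 1 was 0.17, and 29 of 32 were higher.

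Krtcap2 had the smallest p of the members under day serum. Its FPKM in replicates 1 to 4 was 436, 403, 451 and 443 under Bmal1hep-/- ZT4 serum, against 298, 350.1, 321 and 315 under WT ZT4 serum. Every Bmal1hep-/- ZT4 library lay above every WT ZT4 library, with means of 433 ± 21.1 in Bmal1hep-/- ZT4 and 321 ± 21.7 in WT ZT4 (SD, n = 4 each, as for all means here). The difference was 0.43 ± 0.07 and did not pass (limma, adjusted p = 0.0549, 0.0372 to 0.315 over the alternatives, with 0.0372 without Bmal1hep-/- ZT4 replicate 1 and 0.0389 without WT ZT4 replicate 2). Cdk5rap3, which works with the UFM1 ligase, had 28.2, 27.3, 25.7 and 26.2 FPKM under Bmal1hep-/- ZT4 serum, against 19.7, 20.3, 19.7 and 21.9 under WT ZT4 serum, again with no overlap (0.38 ± 0.06, adjusted p = 0.0650). Cope, the epsilon subunit of the coatomer, had 106, 96.1, 95.9 and 99.6 FPKM under Bmal1hep-/- ZT4 serum, against 79.7, 71.1, 68.2 and 81.3 under WT ZT4 serum (0.40 ± 0.07, adjusted p = 0.0755). Its groups were apart as well, and the differences of the other coatomer genes ran from 0.06 for Arcn1, the delta subunit, to 0.30 for Copa, the alpha subunit (0.17 without Bmal1hep-/- ZT4 replicate 1).

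**Figure D2:**
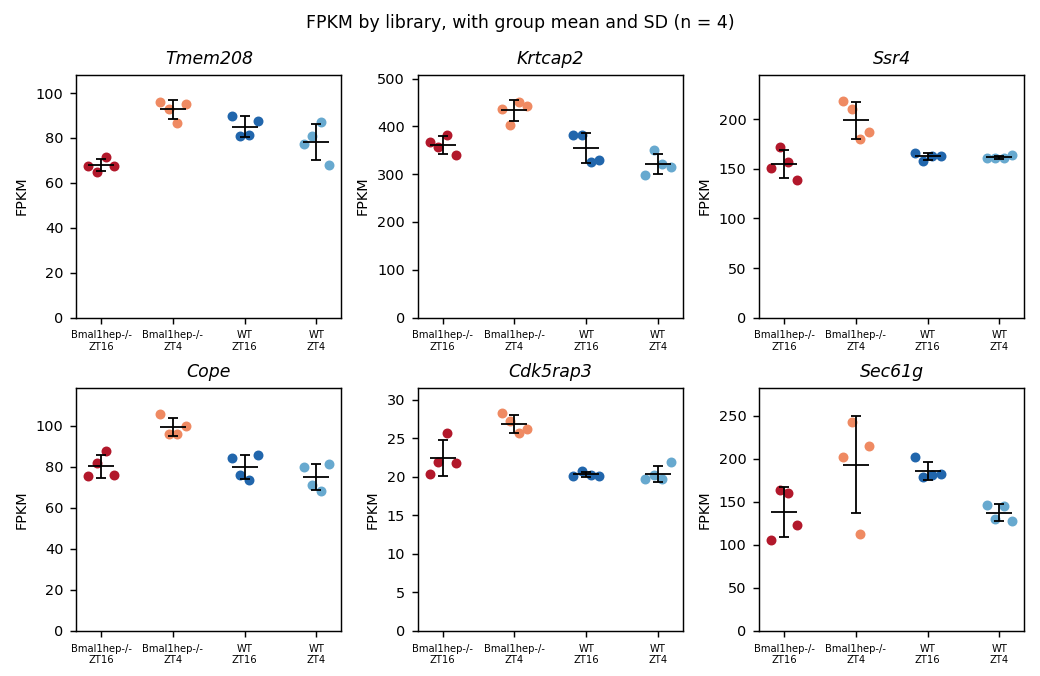
Points are FPKM of single libraries (replicates 1 to 4, left to right within each serum group) of 6 members, with a bar at the group mean and whiskers of 1 SD (n = 4). All 4 Bmal1hep-/- ZT16 libraries of Tmem208 lie below those of Bmal1hep-/- ZT4 and of WT ZT16, and Krtcap2, Cope and Cdk5rap3 have their highest means in Bmal1hep-/- ZT4.

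Further members with groups that did not overlap or with large differences under day serum came from the translocon, the oligosaccharyltransferase and the coatomer. Spcs2, a signal peptidase subunit, had 80.1, 55.5, 58.2 and 44.9 FPKM under Bmal1hep-/- ZT4 serum, against 43.8, 38.0, 41.3 and 40.5 under WT ZT4 serum (0.50 ± 0.14, adjusted p = 0.268). This was the largest difference among the 32 members, some of its reads could be shared with the annotated pseudogene Spcs2-ps, and replicate 1 was far above the rest of its group: without that replicate the difference was 0.36. Ssr4, the delta subunit of the translocon-associated complex, had 219, 211, 179.9 and 187 FPKM under Bmal1hep-/- ZT4 serum, against 161, 161, 161 and 164 under WT ZT4 serum (0.30 ± 0.07, adjusted p = 0.202). The WT ZT4 libraries of Ssr4 lay within 4 FPKM of each other. Ostc, which like Krtcap2 binds the STT3A complex to the channel, had 252, 194, 191 and 171 FPKM under Bmal1hep-/- ZT4 serum, against 156, 147, 146 and 146 under WT ZT4 serum (0.42 ± 0.12, adjusted p = 0.268). Dad1, a small core subunit of the oligosaccharyltransferase, had 245, 257, 246 and 234 FPKM under Bmal1hep-/- ZT4 serum, against 216, 194, 184 and 205 under WT ZT4 serum (0.30 ± 0.07, adjusted p = 0.239). Copz1, the zeta subunit of the coatomer, had 105, 87.4, 91.8 and 87.2 FPKM under Bmal1hep-/- ZT4 serum, against 83.1, 72.6, 77.7 and 78.1 under WT ZT4 serum (0.25 ± 0.07, adjusted p = 0.246). In Ostc, Dad1 and Copz1 the groups did not overlap. The smallest differences of the 32 were those of Ufl1 (0.02 ± 0.11), Tmem258 (0.05 ± 0.19) and Arcn1 (0.06 ± 0.10). Without Bmal1hep-/- ZT4 replicate 1 these 3 were lower than in WT, at -0.10 (Ufl1), -0.05 (Tmem258) and -0.03 (Arcn1).

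Under night serum, 26 of the 32 members were higher and 6 lower under Bmal1hep-/- ZT16 serum than under WT ZT16 serum, and 0 passed. The median was 0.15, against 0.01 over all tested genes, of which 51.4% were higher. The sets were close to each other, with medians of 0.18 (translocon), 0.17 (oligosaccharyltransferase), 0.15 (coatomer) and 0.13 (ufmylation). All 7 coatomer genes and all 3 ufmylation genes were higher. Over all genes 0.0509% passed and 12.7% had an unadjusted p under 0.05, against 9 members higher and 2 lower. The 2 groups did not overlap in 11 members that were higher, where 5.95% of all tested genes did so, and in 3 that were lower, where 5.92% did. The members apart and higher were Sec63, Spcs3, Ssr1, Ssr3, Stt3a, Rpn2, Copb1, Copb2, Copg1, Arcn1 and Ufl1, and those apart and lower were Tmem208, Sec61g and Tmem258.

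Sec63 had 26.0, 27.8, 27.7 and 24.9 FPKM under Bmal1hep-/- ZT16 serum, against 20.5, 21.8, 20.5 and 21.6 under WT ZT16 serum (0.32 ± 0.10, limma, adjusted p = 0.251). Spcs3, a signal peptidase subunit, had 59.0, 73.9, 72.6 and 58.9 FPKM under Bmal1hep-/- ZT16 serum, against 53.7, 51.7, 50.7 and 49.5 under WT ZT16 serum (0.35 ± 0.12, adjusted p = 0.269). Its exons overlap those of the more highly expressed Asb5 on the other strand, as given below. Ssr3 had 283, 341, 319.5 and 245 FPKM under Bmal1hep-/- ZT16 serum, against 209, 227, 237 and 227 under WT ZT16 serum (0.39 ± 0.14, adjusted p = 0.281). In these 3 genes the lowest Bmal1hep-/- library stood above the highest WT library, and the WT libraries were the closer together. With library weights Sec63, Spcs3 and Ssr3 passed (adjusted p = 0.0324, 0.0384 and 0.0485). The number of all tested genes that passed in this comparison also changed widely with the settings, as given under processing below. Copb1, the beta subunit of the coatomer, had 60.9, 61.8, 59.1 and 56.7 FPKM under Bmal1hep-/- ZT16 serum, against 52.0, 49.0, 52.9 and 50.6 under WT ZT16 serum (0.22 ± 0.08, adjusted p = 0.300). Copb2, the beta prime subunit, had 80.5, 85.9, 79.8 and 78.6 FPKM under Bmal1hep-/- ZT16 serum, against 72.4, 71.9, 73.0 and 75.6 under WT ZT16 serum (0.15 ± 0.06, adjusted p = 0.364). Stt3a had 163, 182, 168 and 144 FPKM under Bmal1hep-/- ZT16 serum, against 138, 139.5, 140.4 and 136 under WT ZT16 serum (0.24 ± 0.11, adjusted p = 0.367). In these 3 genes too the groups did not overlap. The genes with the smallest p under day serum were not among these: Krtcap2 differed by 0.03 ± 0.07, Cope by 0.01 ± 0.07 and Cdk5rap3 by 0.13 ± 0.06 under night serum.

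Sec61g, the gamma subunit of the channel, differed in sign from its partner subunits under night serum. It had 106, 164, 161 and 123 FPKM under Bmal1hep-/- ZT16 serum, against 201, 179, 181 and 182 under WT ZT16 serum (-0.45 ± 0.18, adjusted p = 0.342). All 4 Bmal1hep-/- ZT16 libraries were below all 4 WT ZT16 libraries. Sec61a1 had 122, 190.2, 161 and 119.8 FPKM under Bmal1hep-/- ZT16 serum, against 126, 121, 129.6 and 114 under WT ZT16 serum (0.25 ± 0.17). Sec61b, the beta subunit, had 137, 193, 185 and 138 FPKM under Bmal1hep-/- ZT16 serum, against 166, 149, 148 and 150.01 under WT ZT16 serum (0.07 ± 0.15). The groups of Sec61a1 and Sec61b overlapped. Tmem258 had 230.4, 278, 271 and 229.6 FPKM under Bmal1hep-/- ZT16 serum, against 296, 297, 294 and 289.9 under WT ZT16 serum (-0.23 ± 0.19, adjusted p = 0.643). Its WT ZT16 libraries were tightly grouped above every Bmal1hep-/- ZT16 library.

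**Figure D3:**
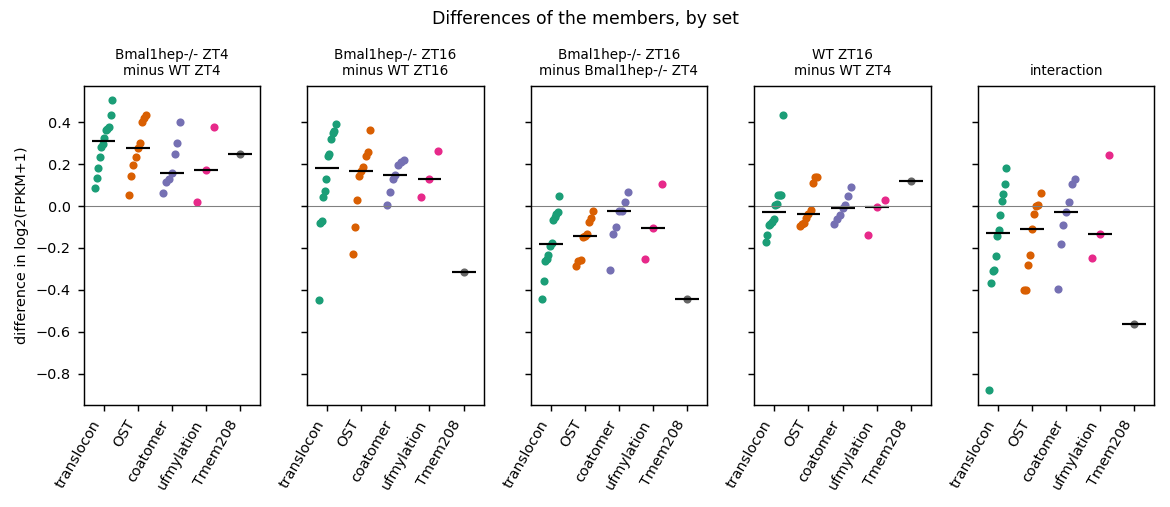
Each point is the difference of 1 member in log2(FPKM+1) in the comparison named above the panel, by set (translocon, OST for oligosaccharyltransferase, coatomer, ufmylation, Tmem208), with a line at the set median. All points lie above 0 in Bmal1hep-/- ZT4 minus WT ZT4, while in WT ZT16 minus WT ZT4 the set medians of translocon, OST, coatomer and ufmylation lie between -0.04 and -0.01.

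Between night and day serum of Bmal1hep-/- donors, Tmem208 was the member that passed, and it was lower at night. Tmem208 is an ER membrane protein whose human counterpart takes part in SRP-independent (SND) targeting of proteins to the ER. Its FPKM was 67.5, 65.0, 71.7 and 67.7 under Bmal1hep-/- ZT16 serum, against 95.8, 93.1, 86.8 and 95.1 under Bmal1hep-/- ZT4 serum, with means of 68.0 ± 2.75 in Bmal1hep-/- ZT16 and 92.7 ± 4.11 in Bmal1hep-/- ZT4. The highest night library was below the lowest day library. The difference was -0.44 ± 0.07 (limma, adjusted p = 0.0315). The call was lost without 6 of the 8 libraries of this comparison, each left out in turn: Bmal1hep-/- ZT16 replicate 1 (0.165), 2 (0.0631), 3 (0.0633) or 4 (0.149), and Bmal1hep-/- ZT4 replicate 2 (0.105) or 4 (0.123), all adjusted p. It was also lost with no filter (0.0814), with only the 2 groups compared (0.219), with a common FPKM sum (0.0839), with the replicate number as a block (0.123) and with the length trend removed (0.246). Under the alternatives the adjusted p ran from 0.0148 to 0.246 and the difference stayed between -0.47 and -0.31. The annotated exons of Tmem208 (chr8:105326354-105335219, plus strand, GRCm38) overlap those of Fhod1 on the other strand, as the exons of 15 of the 32 members overlap some gene there, and the sources used here do not say whether counting used strand. Fhod1 averaged 11.3 ± 0.403 FPKM in Bmal1hep-/- ZT16, 10.7 ± 0.730 in Bmal1hep-/- ZT4, 11.1 ± 0.519 in WT ZT16 and 11.1 ± 1.03 in WT ZT4. Asb5, which overlaps Spcs3 in the same way, was well above Spcs3 itself. It averaged 194.8 FPKM in Bmal1hep-/- ZT16, 230.2 in Bmal1hep-/- ZT4, 214.1 in WT ZT16 and 209.1 in WT ZT4. Fen1, which overlaps Tmem258, had group means from 47.9 to 50.53 FPKM.

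Of the 32 members 28 had a lower mean under Bmal1hep-/- ZT16 than under Bmal1hep-/- ZT4 serum and 4 a higher one, with a median of -0.13 against 0.01 over all tested genes. Over all genes 0.0170% passed, which was 2 genes with Tmem208 among them, and 11.9% had an unadjusted p under 0.05, as did 9 members, all lower. The groups were apart in 5 members, all lower (Tmem208, Ssr4, Cope, Krtcap2 and Cdk5rap3), where 2.52% of all tested genes were apart and lower and 2.48% apart and higher. Ssr4 had 151, 172, 157 and 139 FPKM under Bmal1hep-/- ZT16 serum, against 219, 211, 179.9 and 187 under Bmal1hep-/- ZT4 serum (-0.36 ± 0.07, limma, adjusted p = 0.0898). Cope had 75.3, 81.6, 87.7 and 76.0 FPKM under Bmal1hep-/- ZT16 serum, against 106, 96.1, 95.9 and 99.6 under Bmal1hep-/- ZT4 serum (-0.31 ± 0.07, adjusted p = 0.197). By set, the medians were -0.18 (translocon), -0.14 (oligosaccharyltransferase), -0.10 (ufmylation) and -0.03 (coatomer). With Bmal1hep-/- ZT4 replicate 1 left out they were -0.04 (translocon), -0.02 (oligosaccharyltransferase), -0.01 (ufmylation) and 0.05 (coatomer, with 5 of 7 higher). Without that replicate the members' median was -0.01 and 15 of 32 were higher. Without it Tmem208 (-0.43, adjusted p = 0.0179) and Spcs1, a signal peptidase subunit (-0.33, adjusted p = 0.0306), passed, and without Bmal1hep-/- ZT4 replicate 3 Ssr4 did (-0.41, adjusted p = 0.0399). More of all tested genes also passed when replicate 1 was left out, as given under processing below.

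Between night and day serum of WT donors the members were nearly level. They split into 14 higher and 18 lower under WT ZT16 serum, with a median of -0.02 against 0.00 over all tested genes, and 0 passed, where 0% of all tested genes did. Set medians ran from -0.04 (oligosaccharyltransferase) to -0.01 (coatomer and ufmylation). With an unadjusted p under 0.05 there was 1 member, Sec61g, against 3.97% of all tested genes. The fit used 1 spread for all 4 groups, so these p-values rest largely on the Bmal1hep-/- libraries. The members' mean log2(FPKM+1) had an SD of 0.14 in Bmal1hep-/- ZT16 and 0.2 in Bmal1hep-/- ZT4. It had an SD of 0.01 in WT ZT16 and 0.031 in WT ZT4. Sec61g had 201, 179, 181 and 182 FPKM under WT ZT16 serum, against 146, 130.2, 146 and 127 under WT ZT4 serum (0.44 ± 0.18, limma, adjusted p = 0.999). Its night libraries were all above its day libraries, as were those of Tmem258 at 296, 297, 294 and 289.9 FPKM under WT ZT16 serum, against 288, 247, 277 and 256 under WT ZT4 serum (0.14 ± 0.19). Those 2 members were apart and higher, where 2.55% of all tested genes were. Another 4 members were apart and lower, Sec63, Ssr3, Stt3a and Stt3b, where 1.80% of all tested genes were. Ssr3 had 209, 227, 237 and 227 FPKM under WT ZT16 serum, against 250.3, 241, 266 and 257 under WT ZT4 serum (-0.17 ± 0.14). Stt3b had 53.4, 53.6, 55.3 and 52.0 FPKM under WT ZT16 serum, against 55.9, 56.4, 59.8 and 55.9 under WT ZT4 serum (-0.09 ± 0.13). In a fit of the 2 WT groups alone, which uses only their spread, Sec61g passed (limma, adjusted p = 0.0272). The share of all tested genes that passed in that fit is not given here, so whether the call is particular to Sec61g cannot be told.

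The interaction asked whether the night-minus-day difference itself differed between Bmal1hep-/- and WT serum. Tmem208 passed, with an interaction of -0.56 ± 0.10 (limma, adjusted p = 0.0255), as did 0.0934% of all tested genes. Under WT serum its FPKM was 90.0, 81.0, 81.1 and 87.7 at ZT16, against 77.3, 80.9, 86.9 and 67.9 at ZT4 (0.12 ± 0.07), so night was not the lower time there and the groups overlapped. The call was lost without Bmal1hep-/- ZT16 replicate 1 (0.0672) or 2 (0.0562), Bmal1hep-/- ZT4 replicate 4 (0.0539), WT ZT16 replicate 1 (0.0698) or 4 (0.0733) or WT ZT4 replicate 1 (0.0579), all adjusted p. It was also lost with no filter (0.0549), a common FPKM sum (0.0831), the replicate block (0.0659) and the length trend removed (0.221). The interaction was lower than 0 in 21 members and higher in 11, with a median of -0.11 against 0.01 over all tested genes. An unadjusted p under 0.05 was found for 8 members, all lower, against 10.3% of all tested genes. They were Tmem208, Krtcap2 (-0.40 ± 0.10), Cope (-0.40 ± 0.10), Ssr4 (-0.37 ± 0.10), Dad1 (-0.40 ± 0.11), Sec61g (-0.88 ± 0.26), Spcs1 (-0.31 ± 0.10) and Cdk5rap3 (-0.25 ± 0.09), and apart from Tmem208 their adjusted p ran from 0.139 to 0.348. Without Bmal1hep-/- ZT4 replicate 1 the members' median was 0.01, Tmem208 stood at -0.55 (adjusted p = 0.0148), and Spcs1 passed too (-0.38, adjusted p = 0.0461). More of all tested genes then passed in the interaction as well, as given under processing below.

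Sec61g had the largest interaction of the members and an uneven group. Its FPKM under Bmal1hep-/- ZT4 serum was 202, 243, 112 and 215 in replicates 1 to 4, so replicate 3 lay far below the other 3 libraries. Tmem258 was low in the same library, with 346, 371, 152 and 302 FPKM. Without that replicate Sec61g passed in the interaction (-1.12, limma, adjusted p = 0.00889), as did Tmem258 (-0.57, adjusted p = 0.0441). With it, both missed the threshold (adjusted p = 0.203 and 0.759). Both transcripts are under 1000 nt. Over all tested genes, the mean of those under 1000 nt minus that of longer ones was -0.08 in this replicate. It was -0.04, 0.10 and 0.20 in replicates 1, 2 and 4 of Bmal1hep-/- ZT4. The part of transcript length in these 2 calls was not tested. The number of all tested genes that passed in the interaction also changed with the library left out, as given under processing below.

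Bmal1hep-/- ZT4 replicate 1 was the highest of the 16 libraries in 10 of the 12 translocon genes, with Sec61g and Spcs1 the exceptions. Spcs1 had 157, 151, 164 and 146 FPKM in Bmal1hep-/- ZT16 and 159.5, 186, 198 and 201 in Bmal1hep-/- ZT4, against 157, 173, 153 and 169.9 in WT ZT16 and 169.7, 159.7, 149 and 153 in WT ZT4. Ssr2, the beta subunit of the translocon-associated complex, had 141, 197, 185 and 146 FPKM in Bmal1hep-/- ZT16 and 239, 186, 167 and 170.2 in Bmal1hep-/- ZT4, against 159.6, 155, 149.5 and 142 in WT ZT16 and 161, 145, 139.5 and 139 in WT ZT4. Ssr2 was the third member of its set whose Bmal1hep-/- ZT4 and WT ZT4 groups did not overlap (0.37 ± 0.11, limma, adjusted p = 0.306). Spcs2 had 44.2, 60.7, 57.2 and 39.0 FPKM in Bmal1hep-/- ZT16, against 37.5, 38.5, 37.1 and 40.4 in WT ZT16 (0.36 ± 0.14). Ssr4 had 166, 158, 163 and 163 FPKM in WT ZT16, close to its WT ZT4 libraries. Under Bmal1hep-/- ZT4 serum Sec63 had 33.9, 24.1, 26.2 and 20.3 FPKM, against 24.3, 22.4, 24.1 and 22.5 under WT ZT4 serum (0.14 ± 0.10). Spcs3 had 88.0, 68.3, 70.8 and 51.0 FPKM under Bmal1hep-/- ZT4 serum, against 54.5, 51.2, 57.5 and 54.2 under WT ZT4 serum (0.32 ± 0.12). Ssr3 had 433, 288, 314 and 232 FPKM under Bmal1hep-/- ZT4 serum, and in Sec63, Spcs3 and Ssr3 replicate 1 was the highest library of that group. Without it the differences from WT ZT4 were 0.01 (Sec63), 0.20 (Spcs3) and 0.12 (Ssr3).

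In the oligosaccharyltransferase, Krtcap2, Dad1 and Ostc were apart from WT under day serum and overlapped with it under night serum. Krtcap2 had 367, 356, 382 and 339 FPKM in Bmal1hep-/- ZT16, against 381, 381, 325 and 329 in WT ZT16. Dad1 had 183, 237, 205 and 183 FPKM in Bmal1hep-/- ZT16, against 208, 224, 217 and 214 in WT ZT16 (-0.10 ± 0.07). Ostc had 160.2, 205, 185 and 128 FPKM in Bmal1hep-/- ZT16, against 147, 149.7, 148 and 142 in WT ZT16 (0.19 ± 0.12). The lowest Bmal1hep-/- ZT16 library of Dad1 and of Ostc lay below all WT ZT16 libraries and the highest above them. Stt3a had 227, 160.2, 177 and 138 FPKM in Bmal1hep-/- ZT4, against 150.4, 144, 153 and 140.5 in WT ZT4 (0.23 ± 0.11). Stt3b had 62.6, 75.6, 67.1 and 53.7 FPKM in Bmal1hep-/- ZT16 and 89.7, 65.5, 62.9 and 49.6 in Bmal1hep-/- ZT4, with differences from WT of 0.26 ± 0.13 under night serum and 0.20 ± 0.13 under day serum. Leaving out Bmal1hep-/- ZT4 replicate 1, the day differences were 0.10 for Stt3a and 0.05 for Stt3b.

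Among coatomer genes, Copa had 82.3, 88.5, 86.0 and 73.5 FPKM in Bmal1hep-/- ZT16 and 115, 81.6, 91.1 and 70.9 in Bmal1hep-/- ZT4, against 67.9, 74.4, 72.9 and 69.0 in WT ZT16 and 75.6, 69.7, 68.1 and 72.9 in WT ZT4. Arcn1 had 96.0, 99.2, 95.8 and 89.9 FPKM in Bmal1hep-/- ZT16 and 109.6, 85.3, 101 and 71.8 in Bmal1hep-/- ZT4, against 79.2, 81.3, 87.5 and 84.4 in WT ZT16 and 92.7, 81.9, 88.4 and 84.5 in WT ZT4. In both genes Bmal1hep-/- ZT4 replicate 1 was the highest of the 16 libraries. Copb1 had 71.4, 53.5, 62.1 and 50.4 FPKM in Bmal1hep-/- ZT4, against 51.7, 54.4, 54.8 and 56.3 in WT ZT4 (0.11 ± 0.08), and Copb2 had 95.6, 78.4, 82.7 and 74.8 in Bmal1hep-/- ZT4, against 79.2, 70.6, 75.9 and 76.0 in WT ZT4 (0.13 ± 0.06). Those differences without Bmal1hep-/- ZT4 replicate 1 were 0.02 for Copb1 and 0.06 for Copb2. Under night serum the groups of Cope and Copz1 overlapped: Cope had 84.3, 76.0, 73.5 and 85.7 FPKM in WT ZT16, and Copz1 had 82.1, 88.0, 89.2 and 78.3 FPKM in Bmal1hep-/- ZT16, against 81.7, 79.0, 75.5 and 85.6 in WT ZT16 (0.07 ± 0.07). Of the ufmylation genes, Ufm1, the modifier itself, had 16.4, 22.3, 19.7 and 18.03 FPKM in Bmal1hep-/- ZT16 and 25.1, 19.6, 19.3 and 18.6 in Bmal1hep-/- ZT4, against 18.4, 17.8, 18.3 and 19.2 in WT ZT16 and 18.4, 18.2, 19.3 and 16.4 in WT ZT4. Ufl1 had 10.9, 11.49, 10.9 and 9.48 FPKM in Bmal1hep-/- ZT16 and 12.9, 8.68, 10.6 and 7.93 in Bmal1hep-/- ZT4, against 8.18, 8.87, 8.91 and 9.04 in WT ZT16 and 10.4, 8.89, 9.20 and 10.5 in WT ZT4. Ufl1 was apart under night serum (0.26 ± 0.11, adjusted p = 0.343), and the Ufm1 groups overlapped, with Bmal1hep-/- ZT4 replicate 1 highest. Cdk5rap3 had 20.3, 21.9, 25.7 and 21.9 FPKM in Bmal1hep-/- ZT16, against 20.2, 20.7, 20.2 and 20.1 in WT ZT16, with the groups overlapping.

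The members' differences varied with transcript length, less closely in some comparisons than in others. Of the 32 members 9 have a median protein-coding transcript under 1000 nt (Krtcap2, Tmem258, Ssr2, Ssr4, Sec61b, Sec61g, Spcs1, Spcs2 and Tmem208). In Bmal1hep-/- ZT16 minus Bmal1hep-/- ZT4 all 9 were lower, with a median of -0.26, and the 23 longer members had a median of -0.07. In the interaction all 9 were lower again, with a median of -0.31 against -0.03 in the longer ones. Under night serum the short members had a median of -0.07 in Bmal1hep-/- minus WT and the longer members one of 0.20, with 22 of 23 higher. Under day serum the medians were 0.37 for the short and 0.23 for the longer members. In WT ZT16 minus WT ZT4 the short members had a median of 0.05, with 8 of 9 higher. The longer members had one of -0.06 there, with 17 of 23 lower. Without Bmal1hep-/- ZT4 replicate 1 the longer members' median was 0.06 in Bmal1hep-/- over time, 0.09 for the interaction and 0.10 under day serum, and the short members' -0.26, -0.32 and 0.25, with 8 of the 9 short members lower in the interaction. Across the 32 genes the difference followed log2 transcript length with Pearson's r of 0.76 (Spearman's rho 0.77) in Bmal1hep-/- over time, -0.62 (-0.67) in WT over time and 0.76 (0.78) for the interaction. For Bmal1hep-/- minus WT it was -0.46 (-0.44) under day serum and 0.61 (0.62) under night serum. These values describe genes that share the same libraries and are not independent replicates.

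**Figure D4:**
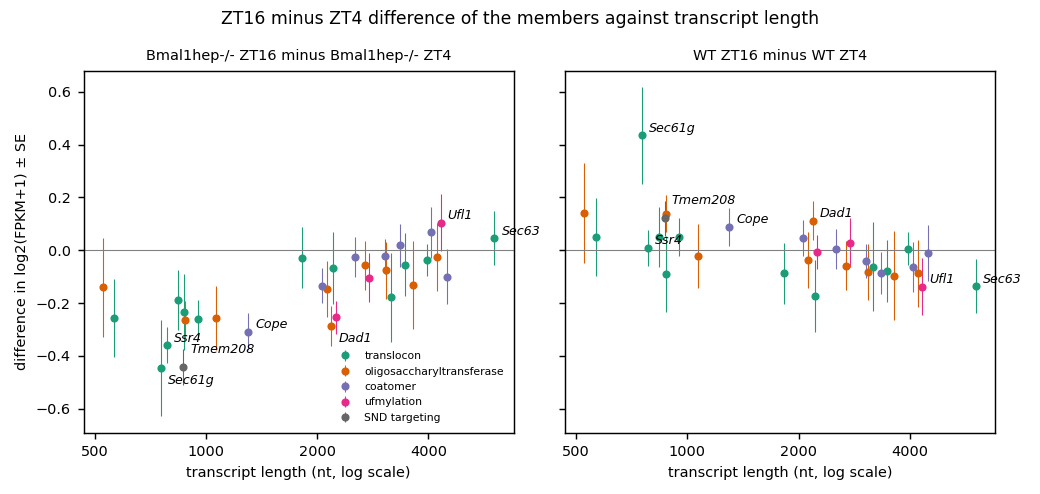
Each point is 1 member, placed by its median transcript length in nt (log axis) and its ZT16 minus ZT4 difference in log2(FPKM+1), with SE, under Bmal1hep-/- serum (left) and WT serum (right). All 9 members under 1000 nt lie below 0 under Bmal1hep-/- serum, and 8 of them lie above 0 under WT serum.

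A like tilt was present over all tested genes. The mean log2(FPKM+1) of 1109 genes under 1000 nt minus that of 10616 longer genes, each gene centred over the libraries, was -0.11, -0.03, -0.03 and -0.07 in Bmal1hep-/- ZT16 replicates 1 to 4, against -0.04, 0.10, -0.08 and 0.20 in Bmal1hep-/- ZT4. It was 0.08, 0.04, 0.00 and 0.06 in WT ZT16, against -0.02, 0.00, -0.05 and -0.04 in WT ZT4. Replicates 2 and 4 of Bmal1hep-/- ZT4 were thus tilted most to short transcripts, and replicates 1, 2 and 4 of WT ZT16 were tilted the same way less strongly. Replicate 1 of Bmal1hep-/- ZT16 was tilted most to longer ones. With a smooth trend on length removed from every library, Tmem208 differed by -0.31 between Bmal1hep-/- ZT16 and Bmal1hep-/- ZT4 (limma, adjusted p = 0.246), its interaction was -0.38 (adjusted p = 0.221), and neither passed. The members' median was then -0.11 in Bmal1hep-/- over time, 0.24 in Bmal1hep-/- minus WT under day serum and 0.16 under night serum.

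The members' mean level differed widely between libraries of Bmal1hep-/- serum and little between libraries of WT serum. The mean of the 32 members, each centred over the 16 libraries, was -0.06, 0.16, 0.11 and -0.13 in Bmal1hep-/- ZT16 replicates 1 to 4 and 0.45, 0.15, 0.09 and -0.02 in Bmal1hep-/- ZT4, against -0.08, -0.10, -0.10 and -0.10 in WT ZT16 and -0.05, -0.12, -0.09 and -0.11 in WT ZT4. Replicates 2 and 3 of Bmal1hep-/- ZT16 and 1, 2 and 3 of Bmal1hep-/- ZT4 stood above every WT library, replicate 4 of Bmal1hep-/- ZT4 did so narrowly, and replicates 1 and 4 of Bmal1hep-/- ZT16 did not. Within the sets, the translocon scores were -0.10, 0.20, 0.14 and -0.16 in Bmal1hep-/- ZT16 and 0.50, 0.20, 0.08 and 0.00 in Bmal1hep-/- ZT4, while the coatomer scores were 0.04, 0.11, 0.08 and -0.04 in Bmal1hep-/- ZT16 and 0.36, 0.03, 0.16 and -0.06 in Bmal1hep-/- ZT4. Replicate 1 of Bmal1hep-/- ZT4 was the highest library in each. Rpn1, a core oligosaccharyltransferase subunit, shows the spread in FPKM: 100.3, 140.3, 117 and 83.7 in Bmal1hep-/- ZT16 and 179, 117, 112 and 85.0 in Bmal1hep-/- ZT4, against 82.7, 82.3, 84.5 and 86.4 in WT ZT16 and 93.6, 88.1, 92.5 and 85.4 in WT ZT4.

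The 22 ER chaperone and stress genes of the same organelle had a wider range over the same libraries. Their score was 0.00, 0.68, 0.63 and -0.34 in Bmal1hep-/- ZT16 and 1.29, 0.51, 0.40 and -0.19 in Bmal1hep-/- ZT4, against -0.52, -0.47, -0.52 and -0.49 in WT ZT16 and -0.22, -0.41, -0.22 and -0.14 in WT ZT4. The same 5 Bmal1hep-/- libraries stood highest for the members and for this list. Hspa5, the main ER chaperone, had 630.4, 1407, 1299 and 462 FPKM under Bmal1hep-/- ZT16 serum, against 379, 393, 367 and 376 under WT ZT16 serum (1.17 ± 0.37, limma, adjusted p = 0.246). It had 2570.4, 1162, 1011 and 555 FPKM under Bmal1hep-/- ZT4 serum, against 512, 417, 536 and 548 under WT ZT4 serum (1.18 ± 0.37, adjusted p = 0.306). At both times the lowest Bmal1hep-/- library was above the highest WT library. The list's median in Bmal1hep-/- minus WT was 0.73 under day serum and 0.77 under night serum, against 0.26 and 0.15 for the members. Of the 22 genes 0 passed at either time and 21 had an unadjusted p under 0.05 at each, against 10.3% (day) and 12.7% (night) of all tested genes. These genes share the same libraries and are not independent. The list's median under day serum without Bmal1hep-/- ZT4 replicate 1 was 0.47 with 21 of 22 higher, and Hspa5 differed by 0.79.

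**Figure D5:**
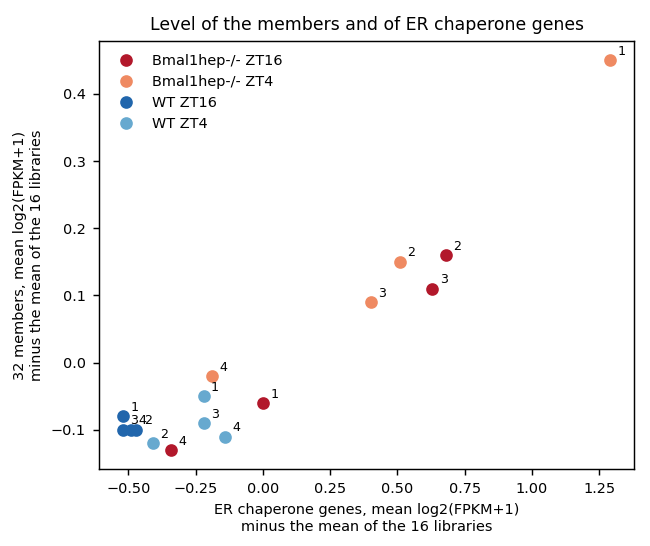
Each point is 1 library, numbered by replicate and coloured by serum group, with the mean centred log2(FPKM+1) of 22 ER chaperone and stress genes on the x axis and of the 32 members on the y axis. Bmal1hep-/- ZT4 replicate 1 is at 1.29 and 0.45, and the 8 WT libraries lie between -0.52 and -0.14 on x and between -0.12 and -0.05 on y.

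Promoter sequences of RefSeq (GRCm38.p6), from 250 bases before to 50 bases after each gene start, matched 26 of the 32 members with 30 promoters. The other 6 were Ostc, Sec61a1, Ssr2, Spcs3, Tmem208 and Arcn1. The classical ER stress response element, CCAAT and CCACG separated by 9 bases, was searched on both strands. It was found in 0 of the 26 member genes and in 8 of 18 ER chaperone and stress genes, and 0.119% of 32851 promoters hold it. The chaperone examples are shown because they carry the element that was not found in the members' windows, with both of its boxes in capitals, written 5′ to 3′ on the gene's strand. They lie at chr2:34772020-34772048 (plus strand) for Hspa5, chr10:86705633-86705661 (minus strand) for Hsp90b1 and chr11:50325795-50325823 (minus strand) for Canx.
Hspa5: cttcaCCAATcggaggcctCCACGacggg
Hsp90b1: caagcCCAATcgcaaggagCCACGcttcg
Canx: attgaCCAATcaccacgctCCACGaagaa
The boxes alone were common: CCACG stood in 21 of 30 member promoters and in 32.8% of all promoters, and CCAAT in 15 of 30 and 37.4%. The motif TGACGT, the core of cAMP and ATF response elements, was found in 4 of 6 coatomer genes (Copb1, Copb2, Cope and Copz1) and in 1 of 20 other member genes (Ufl1), against 7.51% of all promoters. Examples are at chr7:114254689-114254718 (minus strand) for Copb1, where it stands on the opposite strand, chr8:70302546-70302575 (plus strand) for Cope, where it is palindromic, and chr15:103272867-103272887 (plus strand) for Copz1, with TGACGT or its reverse complement in capitals.
Copb1: ccgcccccttccACGTCAgccaaggacttg
Cope: gcggaggaatgTGACGTCAcggagagaccc
Copz1: gccaatcagcggTGACGTcgc
Its extended form TGACGTGG, whose reverse complement includes CCACG, was found in Copb1 and Copb2 and in 0.676% of all promoters. The E-box CACGTG, to which BMAL1 and other factors can bind, was found in Sec62 and Ssr1 and in 7.15% of all promoters. A match describes letters in this window and no binding was measured.

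Other genes of the same pathways were described from lists of related genes, and 0 of them passed in any of the 5 comparisons. Under day serum, Bmal1hep-/- minus WT, 8 of 9 tested genes of the signal recognition particle and its receptor were higher (median 0.15), as were 11 of 11 other translocon and signal peptidase genes (0.09). The COPII coat, which carries cargo out of the ER, had 11 of 13 higher (0.12), and the other COPI and Arf genes 23 of 25 (0.11). The membrane insertases had 14 of 17 higher (0.05), glycan trimming 8 of 12 (0.01) and dolichol-linked sugar synthesis 19 of 27 (0.08). All 5 other ufmylation genes were higher (0.17). Each of these medians but that of the 3 other oligosaccharyltransferase genes (0.29) was below the members' 0.26. Sec11c, a catalytic signal peptidase subunit, had 91.9, 67.7, 58.8 and 52.7 FPKM under Bmal1hep-/- ZT4 serum, against 48.2, 39.5, 48.6 and 37.4 under WT ZT4 serum (0.61 ± 0.14, limma, adjusted p = 0.215). Its groups did not overlap, nor did those of its paralog Sec11a (0.35 ± 0.08, adjusted p = 0.202). Tmed3, a cargo receptor of COPI vesicles, differed by 0.46 ± 0.10 (adjusted p = 0.202) and Kdelr3, a receptor that retrieves ER proteins, by 0.48 ± 0.12 (0.239). With Bmal1hep-/- ZT4 replicate 1 left out, the differences were 0.45 (Sec11c), 0.26 (Sec11a), 0.37 (Tmed3) and 0.38 (Kdelr3). Without Bmal1hep-/- ZT4 replicate 1 the medians were 0.09 for the signal recognition particle, 0.06 for the COPII coat, 0.02 for dolichol-linked sugar synthesis (14 of 27 higher) and -0.01 for glycan trimming (6 of 12 higher), and the other lists' moved by under 1.5 times.

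Under night serum, Bmal1hep-/- minus WT, the membrane insertases stood apart from the rest by sign, with 11 of 17 lower (median -0.07), while the COPII coat (11 of 13 higher, median 0.15) and the other COPI and Arf genes (18 of 25, 0.13) were close to the members' median. The smallest p of these lists in the interaction belonged to Dpm3, a small subunit of dolichol-phosphate mannose synthase. Dpm3 had 30.8, 36.4, 28.7 and 31.96 FPKM in Bmal1hep-/- ZT16 and 33.7, 37.2, 40.7 and 54.0 in Bmal1hep-/- ZT4. Under WT serum it had 44.3, 37.9, 42.2 and 41.3 FPKM at ZT16 and 32.1, 30.1, 35.4 and 29.1 at ZT4. The interaction was -0.72 ± 0.16 and did not pass (limma, adjusted p = 0.0880). Ost4, the smallest oligosaccharyltransferase subunit, had an interaction of -0.49 ± 0.12 (adjusted p = 0.149). Both transcripts are under 1000 nt, at 616 and 860.0 nt.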

How the data were processed

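RNA of C2C12 myotubes was purified on DirectZol columns and libraries were made after poly-A selection with random hexamers, per the labels' protocols. The authors deposited 1 table of FPKM values for all 16 libraries. Per the submitters' processing notes, FastQC 0.11.8 and STAR (no version) were used, and the builds mm10 and GRCm39 are named. Which program made the FPKM values is not stated in the sources used here. FPKM is scaled by library and transcript length, so it holds no read counts and no count model was used.

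Columns were assigned to samples by title, and 0 were left unmapped. Of 24346 rows, 27 whose symbol a spreadsheet had turned into a date were left out. A mean of 0.5 FPKM across libraries was required, which left 11783 genes. They were fitted in limma 3.58.1 (R 4.3.3) as log2(FPKM+1), with a pseudocount of 1, 4 groups in 1 fit, 12 residual degrees of freedom and a mean-variance trend. The 5 comparisons had p-values adjusted by Benjamini-Hochberg over all genes tested, and two-sided tests were used. Fold changes on this scale understate the change of low genes. The fit was tested on simulated data. Other steps used Python 3.11.15, pandas 2.3.3 and matplotlib 3.10.9. Transcript lengths were taken from GENCODE M21 (GRCm38), which covered 99.5% of the genes tested.

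The members and gene lists were chosen with earlier results of these data known, so their counts are descriptions. A member is given in every library if it passed in any comparison, had 1 of the 3 smallest p of its set in any, or differed most from its set. Of each pathway list at most 2 genes with the smallest p are named. Of the genes the rule names, 1 is not reported here. Alternatives were a pseudocount of 0.1, no filter, a mean of at least 2 FPKM, a common FPKM sum, median-ratio scaling, library weights, only the 2 groups compared, the replicate number as a block, removal of a length trend, and each library left out. A block by the numbers in the column headers, a limit to transcripts of at least 1000 nt, and the other pathway lists without Bmal1hep-/- ZT4 replicate 1 were added after seeing the data. The depth is known only relative to the deepest library, so no counting interval was given.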

Additional observations from a re-analysis of the deposited data

Results flagged for a closer look

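In 6 of the 128 sets of 4 libraries that the 32 members give, 1 library lay far from the other 3 (a gap above the 95% critical value of Dixon's test, which chance alone exceeds in about 1 in 20 sets). Sec61b had 165.6 FPKM in WT ZT16 replicate 1, where the others had 148.5 to 150.01, and in the same library Sec61g had 201.5 FPKM, where the others had 179.2 to 181.8. Under WT ZT4 serum, Ssr4 had 164.0 FPKM in replicate 4 (others 160.6 to 161.1), Stt3b 59.76 in replicate 3 (others 55.94 to 56.36) and Ostc 156.5 in replicate 1 (others 146.1 to 147.3). Ufm1 had 25.06 FPKM in Bmal1hep-/- ZT4 replicate 1, where the others had 18.58 to 19.59. The night-minus-day difference of Tmem208 itself differed between Bmal1hep-/- and WT serum, by -0.5629 on the log2(FPKM+1) scale (limma, adjusted p = 0.0255); all 4 night libraries were below all 4 day libraries under Bmal1hep-/- serum, and the times overlapped under WT serum.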

How the results depend on the processing

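Of 3219 values of single members recomputed under 27 settings, 3129 stayed on their side of the threshold and, where not called, moved by under 1 SD. Another 21 lost a call, 19 gained one and 50 moved further. A sign change was seen in 137 values, 0 of them called in either fit: 33 with a common FPKM sum, 20 without Bmal1hep-/- ZT4 replicate 1, 15 with the length trend removed and the rest elsewhere. In Bmal1hep-/- ZT16 minus Bmal1hep-/- ZT4, where 1 member passed, 0 did with the length trend removed, 0 with no filter, 0 with only the 2 groups compared, 0 with a common FPKM sum, 0 with only transcripts of 1000 nt or more (Tmem208 is shorter and not tested there) and 2 with library weights. For the interaction, also 1, the number was 0 with the length trend removed, 0 with no filter, 0 with a common FPKM sum, 0 with only transcripts of 1000 nt or more and 3 with library weights. Where 0 passed, 4 (library weights) and 2 (only the 2 groups) did in Bmal1hep-/- ZT16 minus WT ZT16, 1 (mean of at least 2 FPKM, Krtcap2) in Bmal1hep-/- ZT4 minus WT ZT4 and 1 (only the 2 groups) in WT ZT16 minus WT ZT4. Leaving out each library gave 0 to 2 members in Bmal1hep-/- over time, 0 to 1 in Bmal1hep-/- ZT4 minus WT ZT4 and 0 to 3 for the interaction. The members' median ran from -0.20 to -0.00798 in Bmal1hep-/- over time and from -0.19 to 0.0121 for the interaction, with the second value in each without Bmal1hep-/- ZT4 replicate 1. Over all tested genes, 0 to 62 passed in Bmal1hep-/- over time (2 with all libraries) and 6 to 109 for the interaction (11), with 62 and 109 without that library, and 0 to 16 (1) and 0 to 1 (6) in Bmal1hep-/- minus WT at ZT4 and at ZT16. With library weights or other settings 0 to 254 passed in Bmal1hep-/- ZT16 minus WT ZT16 and 0 to 127 for the interaction. Except for left-out libraries, the cause was not tested.

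A common FPKM sum moved the median of all genes by up to 0.17 (the interaction). The medians of the interaction were then 0.0728 (members), 0.15 (coatomer), 0.0751 (oligosaccharyltransferase), 0.0545 (translocon) and 0.0449 (ufmylation), all below the 0.1734 of all tested genes. The coatomer median was 0.0751 in Bmal1hep-/- over time, against 0.0960 over all tested genes. In Bmal1hep-/- ZT16 minus WT ZT16 it was 0.26 and the ufmylation median 0.24, against 0.1019 over all tested genes. Limited to transcripts of 1000 nt or more, the interaction's translocon median was 0.041.

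With the replicate number of the titles as a replicate block, 0 members passed in Bmal1hep-/- over time and 0 for the interaction, and with the header numbers 1 passed in Bmal1hep-/- ZT4 minus WT ZT4. The title numbers did not pair the libraries: 4 of 24 same-number pairs had a correlation of deviations over 0.1, against 14 of 72 different-number pairs. By header numbers it was 8 of 24 against 10 of 72, with median correlations of 0.059 and -0.008. Whether the header numbers mark a pairing was not tested further. Of 16 libraries, 5 (titles) and 7 (headers) matched their own number best.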

Other observations

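Under WT serum the ER chaperone and stress genes were all lower at night, while 18 of the 32 members were lower and 14 higher. Of the 22 genes 22 had a lower mean in WT ZT16 than in WT ZT4 (median -0.25). In 8 of the 22 the groups did not overlap, where 1.80% of all tested genes were apart and lower. An unadjusted p under 0.05 was found for 0 of the 22, against 3.97% of all tested genes. These genes share the same libraries and are not independent. Hspa5 had 379, 393, 367 and 376 FPKM in WT ZT16, against 512, 417, 536 and 548 in WT ZT4 (-0.40 ± 0.37, limma, adjusted p = 0.999). Hsp90b1, another lumenal chaperone, had 274, 266, 261 and 274 FPKM in WT ZT16, against 322, 289, 349.5 and 346 in WT ZT4 (-0.28 ± 0.28, adjusted p = 0.999). Hsp90b1 had 416, 700.1, 664 and 320.4 FPKM in Bmal1hep-/- ZT16 and 1194, 617, 547 and 343 in Bmal1hep-/- ZT4.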
